A study of Homo sapiens with 3 samples.

Results

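The CYP2 cluster on chromosome 19 holds the cytochrome P450 genes CYP2A6, CYP2A7, CYP2A13, CYP2B6, CYP2F1 and CYP2S1. The 6 genes were taken by name, out of 20037 protein-coding genes of the RefSeq table of assembly GRCh38.p14, and every peak that overlapped one of them or the 1000 bp on either side was assigned to it. The choice of genes was made with earlier results of these data known. The peaks came from Hep3B, a human hepatocellular carcinoma cell line, grown in serum-containing medium with no treatment named in the labels. CUT&RUN, in which an antibody guides a nuclease that cuts out the bound DNA, was carried out with a SOX4 antibody, a STAT6 antibody or control IgG, with 1 library each. The authors listed peaks of the SOX4 and of the STAT6 library over the IgG library. There were 18 SOX4 peaks at the 6 genes, out of 4513 in the SOX4 list, and 29 STAT6 peaks, out of 1078 in the STAT6 list. With 1 library per antibody there was no replicate check and no test between groups, and the read depth behind the peaks is unknown. Peak lists carry no expression, so liver cell markers were not checked here.

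Cytochrome P450 enzymes of family 2 oxidize drugs, toxicants and other small foreign molecules, mostly in the endoplasmic reticulum. CYP2A6, which oxidizes nicotine and coumarin, and CYP2B6, which oxidizes efavirenz, bupropion and cyclophosphamide, are enzymes of the liver. CYP2A13 and CYP2F1 are known mainly from the airways, where CYP2A13 activates a tobacco nitrosamine and CYP2F1 activates naphthalene. CYP2S1 is found in epithelia outside the liver, and CYP2A7 is a close relative of CYP2A6 for whose protein no enzyme activity is established. SOX4 is a transcription factor of the HMG box class and STAT6 is the transcription factor activated by interleukin-4. The peaks of both lists were compared between the liver and airway enzymes, between the near-identical copies, and with related genes elsewhere. Whether a listed peak marks binding of the factor was not tested here.

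To show the regulatory sequence under the peaks, the 250 bases before the start of 5 of the genes were read from RefSeq (GRCh38.p14). CYP2F1 had no window in the table used. The windows of CYP2A6 (minus strand, chr19:40850448-40850697), CYP2A7 (minus strand, chr19:40882232-40882481) and CYP2A13 (plus strand, chr19:41088201-41088450) are shown because they are copies of one another and all lay under peaks of both lists. Sequences are written 5′ to 3′, and capitals mark the bases of CYP2A7 and CYP2A13 that differ from CYP2A6 in a pairwise alignment.
CYP2A6: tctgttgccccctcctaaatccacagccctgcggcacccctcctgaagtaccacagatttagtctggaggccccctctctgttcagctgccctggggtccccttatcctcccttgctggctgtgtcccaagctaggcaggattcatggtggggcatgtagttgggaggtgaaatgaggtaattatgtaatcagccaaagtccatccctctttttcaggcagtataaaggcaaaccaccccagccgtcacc
CYP2A7: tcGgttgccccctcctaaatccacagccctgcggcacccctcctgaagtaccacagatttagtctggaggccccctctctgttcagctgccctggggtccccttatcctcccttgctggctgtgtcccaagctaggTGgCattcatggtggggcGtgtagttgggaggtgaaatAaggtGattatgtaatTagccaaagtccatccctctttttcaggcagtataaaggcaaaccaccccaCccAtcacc
CYP2A13: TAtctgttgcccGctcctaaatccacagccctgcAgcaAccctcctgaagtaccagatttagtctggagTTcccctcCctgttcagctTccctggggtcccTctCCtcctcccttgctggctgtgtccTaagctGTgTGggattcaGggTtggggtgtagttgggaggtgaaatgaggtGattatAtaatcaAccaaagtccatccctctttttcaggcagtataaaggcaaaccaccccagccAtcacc

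The CYP2A7 window was identical to that of CYP2A6 at 240 of 250 aligned positions (96.0%). The CYP2A13 window matched CYP2A6 at 227 of 254 alignment columns (89.4%), with 19 mismatches and 8 gap columns. Reads from such copies can match several of these genes, and how the authors placed them was not given in the sources used here. The values at the CYP2A genes are therefore uncertain as to which copy the reads came from.

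The windows of CYP2B6 (plus strand, chr19:40991032-40991281) and CYP2S1 (plus strand, chr19:41192969-41193218) are shown because they belong to other subfamilies and differ in base composition, yet also lay under both kinds of peak. They were not aligned with the other windows. Capitals here mark the bases inside the STAT6 peak.
CYP2B6: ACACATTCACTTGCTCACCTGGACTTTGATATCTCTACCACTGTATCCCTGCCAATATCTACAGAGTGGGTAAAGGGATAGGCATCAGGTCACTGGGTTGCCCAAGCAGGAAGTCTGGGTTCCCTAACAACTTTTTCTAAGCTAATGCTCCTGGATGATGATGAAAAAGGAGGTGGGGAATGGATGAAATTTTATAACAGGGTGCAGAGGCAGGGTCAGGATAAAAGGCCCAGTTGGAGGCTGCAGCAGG
CYP2S1: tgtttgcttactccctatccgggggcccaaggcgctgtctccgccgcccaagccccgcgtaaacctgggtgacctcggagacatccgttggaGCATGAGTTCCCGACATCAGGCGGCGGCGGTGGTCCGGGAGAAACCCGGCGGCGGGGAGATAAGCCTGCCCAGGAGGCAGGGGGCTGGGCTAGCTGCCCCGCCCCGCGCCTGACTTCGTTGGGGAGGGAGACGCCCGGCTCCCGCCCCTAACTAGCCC

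The SOX4 peak covered all 250 bases in each of the 5 windows. The STAT6 peak covered all 250 bases at CYP2A7, CYP2A13 and CYP2B6, 229 at CYP2A6 and 158 at CYP2S1. Among 22199 such windows of protein-coding genes, 0.698% touched a SOX4 peak and 0.41% touched a STAT6 peak. The window of CYP2S1 was rich in G and C, at 69.6%, with 23 CpG dinucleotides, against medians of 62.0% and 16 over all windows. The window of CYP2B6 had 48.0% G and C and 0 CpG dinucleotides, and those of the CYP2A genes had 52.4% to 54.8% and 1 to 3. Peaks of both lists thus lay on promoters of either kind.

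The windows were also searched, on both strands, for some of the short sequences that the factors are known to bind. The SOX cores ACAAAG and ACAATG were in 0 of the 5 windows, against 11.6% and 6.92% of all windows. The SOX4 consensus given in the paper also allows T in place of the first A of these cores. Cores with that T were not searched for. The CYP2B6 window holds ATCAAAG, which matches the consensus, on the strand opposite to the one shown. The counts for the SOX cores therefore do not show that the windows lacked SOX4 sequences. The STAT6 sequence, TTC and GAA with any 4 bases between them, was in 0 of 5 windows, against 4.62%. The general STAT sequence, with 3 bases between them, was in 0 of 5, against 5.92%. These counts say only that the searched letters were not in these 250 bases, and the peaks reached beyond them.

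Every one of the 6 genes held peaks of both factors. Because the genes were chosen with earlier results of these data known, the shares over all genes are given for scale only. Over all protein-coding genes, 6.35% held a SOX4 peak, 1.08% a STAT6 peak and 1.03% a peak of both lists, and 0.931% of those within the members' range of lengths held both. The members' sequence was covered to 69.1% by SOX4 peaks and to 38.9% by STAT6 peaks, where over all protein-coding genes these shares were 0.201% and 0.0607%. The peaks stood at genes rather than across the cluster. In the 364 kb between the outer ends of CYP2A6 and CYP2S1, the sequence more than 1000 bp from a member or a CYP2 pseudogene was covered to 1.78% by SOX4 and to 1.34% by STAT6 peaks.

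**Figure D1:**
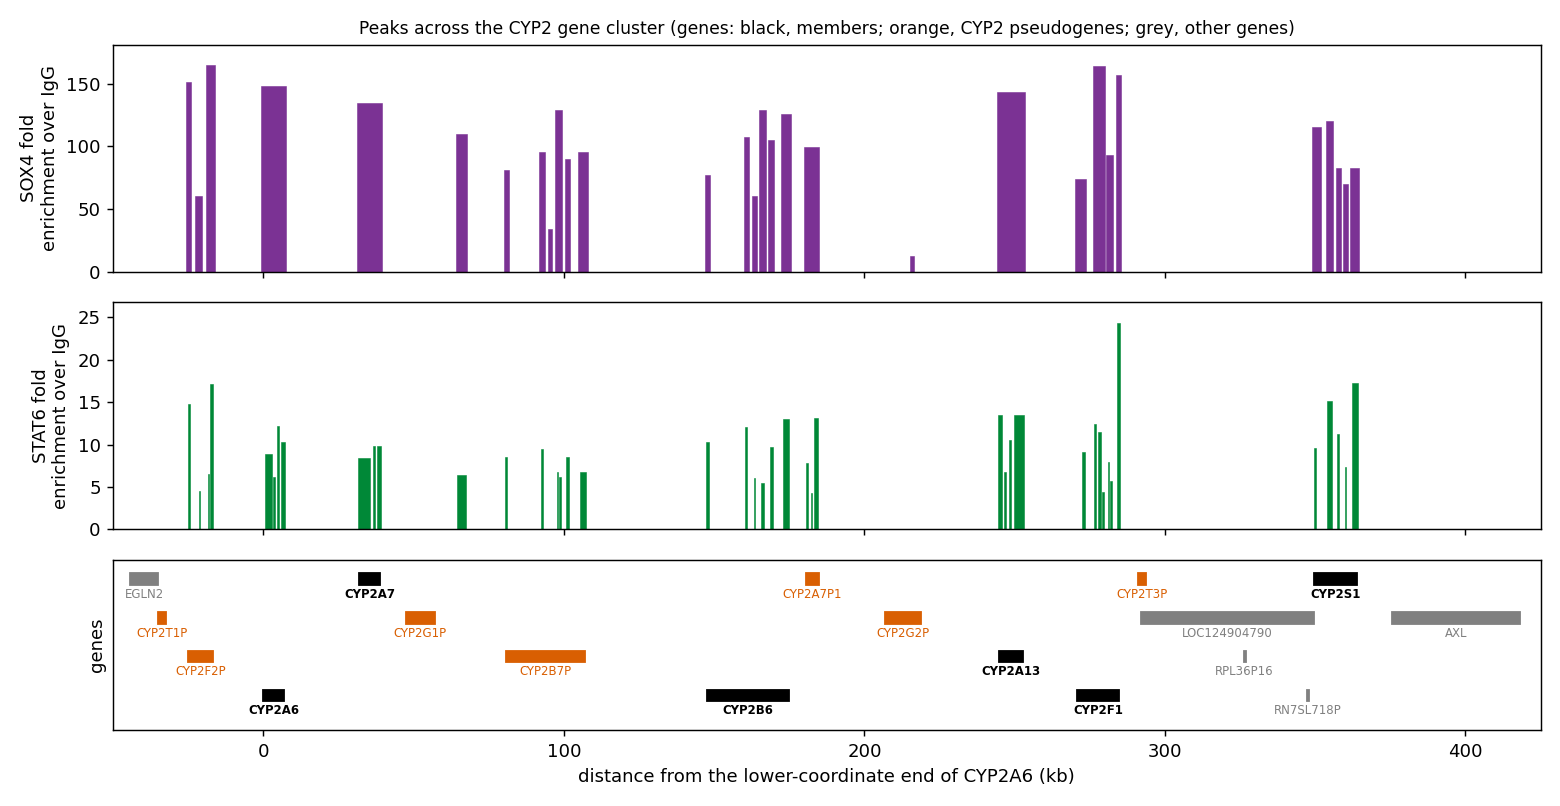
Fold enrichment over IgG of every SOX4 peak (upper panel) and STAT6 peak (middle panel) against the distance in kb from the lower-coordinate end of CYP2A6, with the genes in the lower panel (black, the 6 members; orange, CYP2 pseudogenes; grey, other genes). Bars span the peaks and fall on the members, on some pseudogenes and on 1 unannotated site between CYP2G1P and CYP2B7P, with no bar over CYP2G1P, AXL or, apart from its start beside CYP2S1, LOC124904790.

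The fold enrichment, the ratio of the antibody signal to the IgG signal given by the authors, was high for the SOX4 peaks of all members. It ranged from 60.1 to 164 with a median of 111 over the 18 peaks, while the SOX4 list as a whole had a median of 5.88 and an upper quartile of 12.3. By this measure 16 of the 18 peaks were within the top 10% of the SOX4 list, and the lowest, at CYP2B6, was at rank 538 of 4513. The STAT6 peaks were spread more widely through their list. They ranged from 4.36 to 24.3 with a median of 9.84, against a list median of 7.27 and upper quartile of 11.1, and 2 of 29 were within the top 10%. Fold enrichments of the 2 lists are each relative to their own library and were not compared in size.

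CYP2A6, the nicotine-oxidizing enzyme, lay under a single SOX4 peak of 8332 bp (chr19:40842788-40851119) with a fold enrichment of 148, rank 78. That peak extended past both ends of the 6907 bp gene. Inside it were 4 STAT6 peaks with fold enrichments of 10.3, 12.2, 6.22 and 8.93, in order from the gene start. The gene was covered to 100% by SOX4 and to 63.1% by STAT6 peaks.

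CYP2A7, the relative without established activity, had the same arrangement. Its SOX4 peak of 8378 bp (chr19:40874602-40882979) had a fold enrichment of 135, rank 120, and also covered 100% of the gene. It contained 3 STAT6 peaks, with fold enrichments of 9.80, 9.84 and 8.38, which covered 75.7% of the gene. The third of these was 3991 bp long, the widest STAT6 peak at any of the members, and spanned the stretch that held 2 separate STAT6 peaks in CYP2A6.

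CYP2A13, the airway enzyme of the subfamily, was again covered to 100% by 1 SOX4 peak (chr19:41087704-41096933), the widest at the members with 9230 bp and at rank 11 of the SOX4 list by width. Its fold enrichment was 143, rank 93. The 4 STAT6 peaks inside it had fold enrichments of 13.5, 6.74, 10.5 and 13.5 and covered 65.3% of the gene.

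Measured along the strand, the first 3 STAT6 peaks of the 3 CYP2A genes began within 200 bp of one another. The first peak ran from 229 bp before to 912 bp after the start in CYP2A6, from 275 bp before to 753 bp after in CYP2A7 and from 305 bp before to 921 bp after in CYP2A13. The second began at 1658, 1515 and 1494 bp in the same order of genes, and the third at 3223, 3099 and 3103 bp. The fourth began at 4156 bp in CYP2A6 and at 4917 bp in CYP2A13, and CYP2A7 had none. The genes lie on opposite strands and up to 245 kb apart in the cluster, CYP2A13 being on the plus strand and the others on the minus strand.

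**Figure D2:**
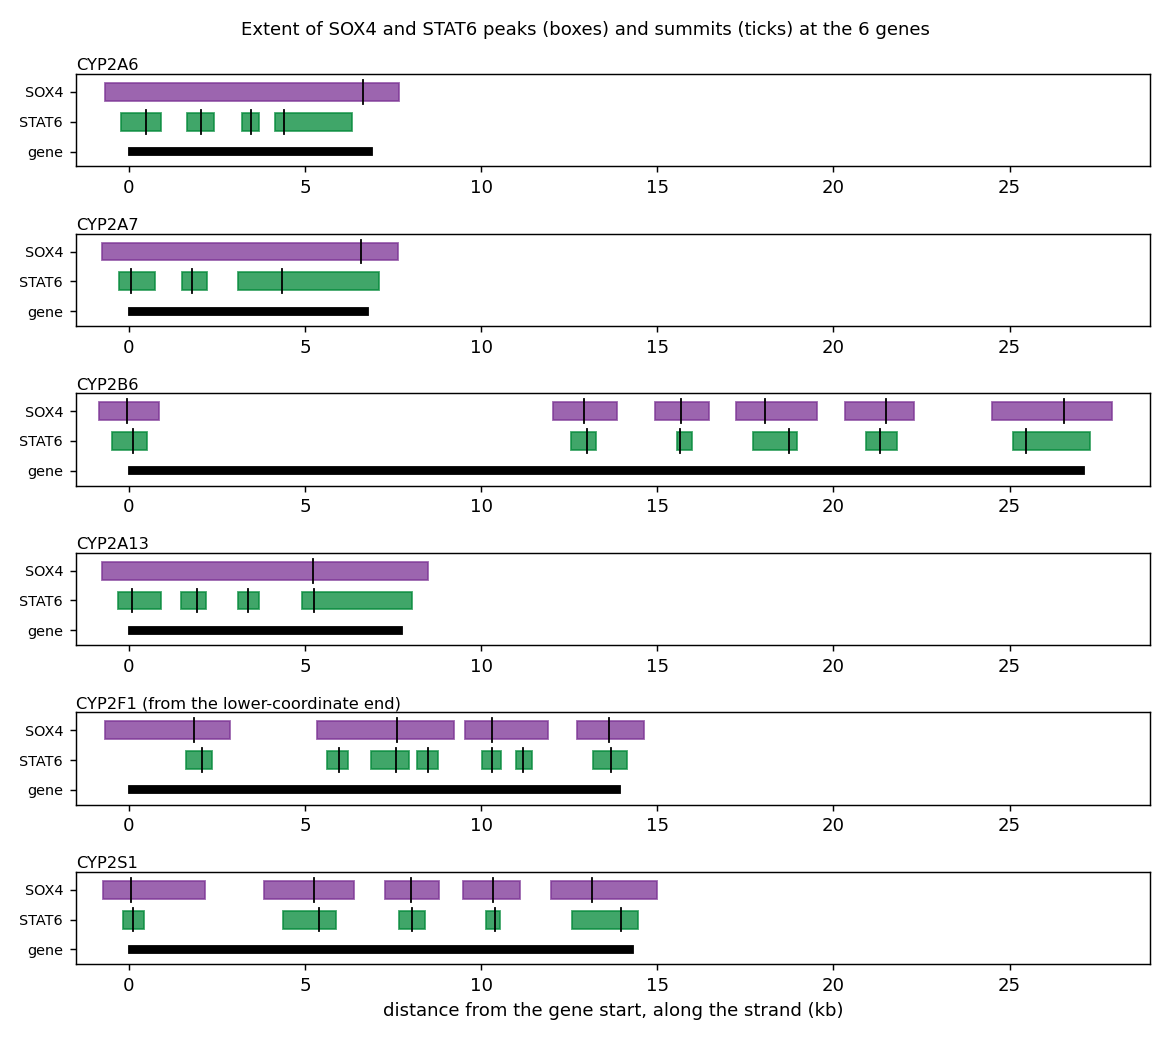
Extent of SOX4 peaks (purple) and STAT6 peaks (green) at each member, with summits as black ticks and the gene as a black bar, against the distance in kb from the gene start along the strand (for CYP2F1, whose strand was not in the tables used, from the lower-coordinate end). The 3 CYP2A genes are each under 1 SOX4 peak, while CYP2B6, CYP2F1 and CYP2S1 hold 4 to 6, and every STAT6 peak lies under a SOX4 peak.

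CYP2B6, the efavirenz- and bupropion-oxidizing enzyme and the longest member with 27117 bp, held 6 SOX4 and 6 STAT6 peaks. The SOX4 fold enrichments, in order from the gene start, were 76.8, 108, 60.1, 129, 105 and 126. The first peak (chr19:40990452-40992129) spanned the start, with its summit 37 bp before it, and the other 5 lay in the second part of the gene. Between the first and the second were 11183 bp without a SOX4 peak, the longest such stretch in any member.

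Each SOX4 peak of CYP2B6 held 1 STAT6 peak, with fold enrichments of 10.3, 12.1, 6.01, 5.45, 9.74 and 13.0 in the same order. The SOX4 peak with the lowest value, the third, held a STAT6 peak of 6.01, while the SOX4 peak with the highest value, the fourth, held the lowest STAT6 value of 5.45. SOX4 peaks covered 40.8% of CYP2B6 and STAT6 peaks 21.4%, the lowest shares among the members.

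CYP2F1, which activates naphthalene in the airways, had the highest fold enrichment among the 6 members in both lists. Its 4 SOX4 peaks had fold enrichments of 74.3, 164, 93.5 and 157 from the lower-coordinate end. The second of these (chr19:41119770-41123670) was at rank 40 of the SOX4 list. The 7 STAT6 peaks had 9.11, 12.4, 11.5, 4.36, 7.96, 5.72 and 24.3 in the same direction.

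The range within CYP2F1 spanned that of all members for STAT6, since 4.36 was the lowest and 24.3 the highest value at any member. The highest (chr19:41127609-41128582) was at rank 5 of 1078 and overlapped the upper-coordinate end of the gene. SOX4 peaks covered 74.3% of CYP2F1 and STAT6 peaks 34.1%.

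CYP2S1, the epithelial enzyme at the upper-coordinate edge of the cluster, held 5 SOX4 peaks, each with 1 STAT6 peak inside. The SOX4 fold enrichments from the gene start were 115, 120.0, 83.1, 69.7 and 83.0. The STAT6 values were 9.55, 15.2, 11.2, 7.33 and 17.3. The first SOX4 peak (chr19:41192492-41195370) had its summit 59 bp after the start and also covered the start of LOC124904790, a protein-coding entry that runs away from CYP2S1 on the minus strand. The body of that neighbour was covered to 0.977% by SOX4 and to 0% by STAT6 peaks. SOX4 peaks covered 71.0% of CYP2S1 and STAT6 peaks 33.6%.

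By the highest SOX4 peak of each gene the order was CYP2F1 (164), CYP2A6 (148), CYP2A13 (143), CYP2A7 (135), CYP2B6 (129) and CYP2S1 (120.0). By the highest STAT6 peak it was CYP2F1 (24.3), CYP2S1 (17.3), CYP2A13 (13.5), CYP2B6 (13.0), CYP2A6 (12.2) and CYP2A7 (9.84). Neither order set the liver enzymes CYP2A6 and CYP2B6 apart from the airway enzymes CYP2A13 and CYP2F1. Without replicates, no 2 of the genes could be told apart in either order. The highest value was also taken over differing numbers of peaks per gene.

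**Figure D3:**
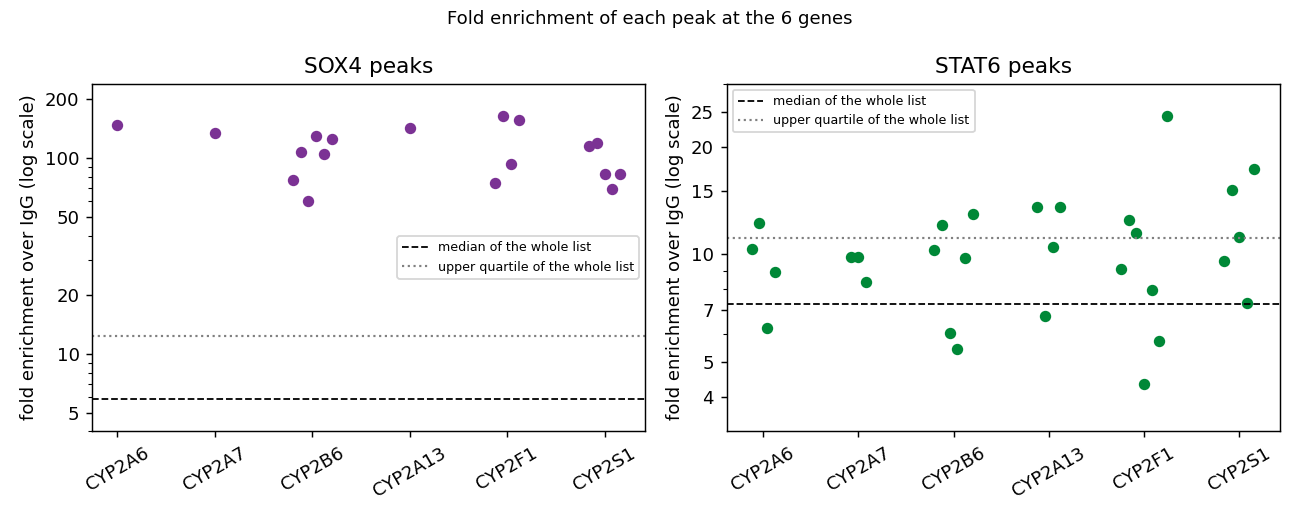
Fold enrichment over IgG (log scale) of each peak at the 6 genes, for SOX4 (left) and STAT6 (right), with points in order of position, the dashed line at the median and the dotted line at the upper quartile of the whole list. All 18 SOX4 points lie above the upper quartile of 12.3, while the 29 STAT6 points lie on both sides of the list median of 7.27.

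All 29 STAT6 peaks at the members overlapped a SOX4 peak (100%, Clopper-Pearson 95% interval 88.1% to 100%, counting error over peaks only). In the whole STAT6 list 78.7% of peaks overlapped a SOX4 peak. Each of the 29 also lay entirely inside a SOX4 peak, a share not computed for the whole list. The 29 peaks lay in 6 chosen genes, some of them copies, and inside 18 SOX4 peaks. They are not independent, so the interval is too narrow to be read as a real uncertainty. The SOX4 peaks of the 3 CYP2A genes covered the whole gene, so that any STAT6 peak within those genes had to overlap them. The share was 20.7% if each peak of a pair had to cover 50% of the other, and 41.4% with summits within 200 bp. Conversely each of the 18 SOX4 peaks held at least 1 STAT6 peak, 13 of them 1 and the others 2 to 4. The summit of the nearest STAT6 peak was within 200 bp of the SOX4 summit at 12 of the 18, with a median distance of 94.5 bp. Counted from the STAT6 peaks, 12 of 29 summits were within 200 bp of a SOX4 summit, with a median of 842 bp and a highest distance of 6536 bp. Over the 18 SOX4 peaks the SOX4 value and the highest STAT6 value inside gave Pearson's r of 0.47 and Spearman's rho of 0.51. This is a description across sites that share the IgG library and, for the copies, sequence.

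Peaks also followed the annotated limits of the genes. All 12 gene ends of the members lay under a SOX4 peak, and 10 lay under a STAT6 peak. The exceptions for STAT6 were the 3′ end of CYP2A6 and the lower-coordinate end of CYP2F1. Over all protein-coding genes, 0.404% had both ends under SOX4 peaks and 0.324% had both under STAT6 peaks.

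The outer edge of the SOX4 peak was 664 to 837 bp beyond the gene end, with a median of 742.5 bp over the 12 ends. For STAT6 the reach was 122 to 464 bp with a median of 252 bp over 10 ends. The ranges for the 2 lists did not overlap. Every STAT6 peak at the members lay inside a SOX4 peak, so at a given end its reach could not be the larger. Among all protein-coding gene ends under a peak the reach was alike, with a median of 698.5 bp over 268 ends for SOX4 (quartiles 542.75 and 764.5 bp) and of 233 bp over 177 ends for STAT6 (quartiles 170 and 298 bp).

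**Figure D4:**
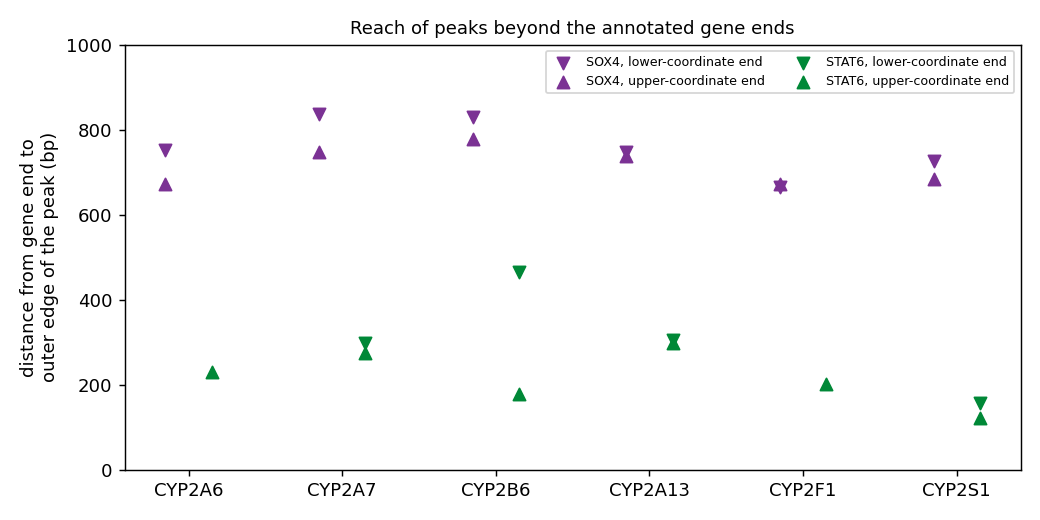
Distance in bp from each annotated gene end to the outer edge of the peak over it, for the lower-coordinate end (triangle down) and the upper-coordinate end (triangle up) of the 6 members, SOX4 in purple and STAT6 in green. SOX4 points lie between 664 and 837 bp and STAT6 points between 122 and 464 bp, with no STAT6 point for 1 end each of CYP2A6 and CYP2F1.

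The pseudogenes of the cluster, relics of duplicated CYP2 genes that make no enzyme, separated into those with and without peaks. Of 7 CYP2 pseudogenes between EGLN2 and CYP2S1, 4 held a SOX4 peak and 3 held peaks of both lists. CYP2F2P, CYP2B7P and CYP2A7P1 held both. CYP2G2P held 1 SOX4 peak with a fold enrichment of 12.5, below every peak at a member, and no STAT6 peak. CYP2T1P, CYP2G1P and CYP2T3P held none. The 11 SOX4 peaks at pseudogenes had a median fold enrichment of 95.6, and the 13 STAT6 peaks one of 7.86.

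CYP2B7P, the pseudogene copy of CYP2B6, held 6 SOX4 peaks as its relative did, and in a similar layout. Its fold enrichments from the lower-coordinate end were 81.3, 95.6, 33.8, 129, 89.9 and 95.6, and CYP2B6 was higher at 5 of the 6 positions, although at the fourth both values rounded to 129. The ratios of CYP2B6 to CYP2B7P were 0.944, 1.12, 1.78, 1.00, 1.17 and 1.31 in that order. CYP2B7P also had a long stretch without a SOX4 peak, of 10280 bp, between its first and second peaks, and the third peak was the lowest, as in CYP2B6.

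The STAT6 peaks of the pair differed at the third position. In CYP2B7P the third SOX4 peak, of 33.8, held no STAT6 peak and the fourth held 2, where in CYP2B6 each held 1. Both genes held 6 STAT6 peaks in all. As with the CYP2A genes, reads from either copy may have been placed on the other, and the part of this in the likeness was not tested.

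**Figure D5:**
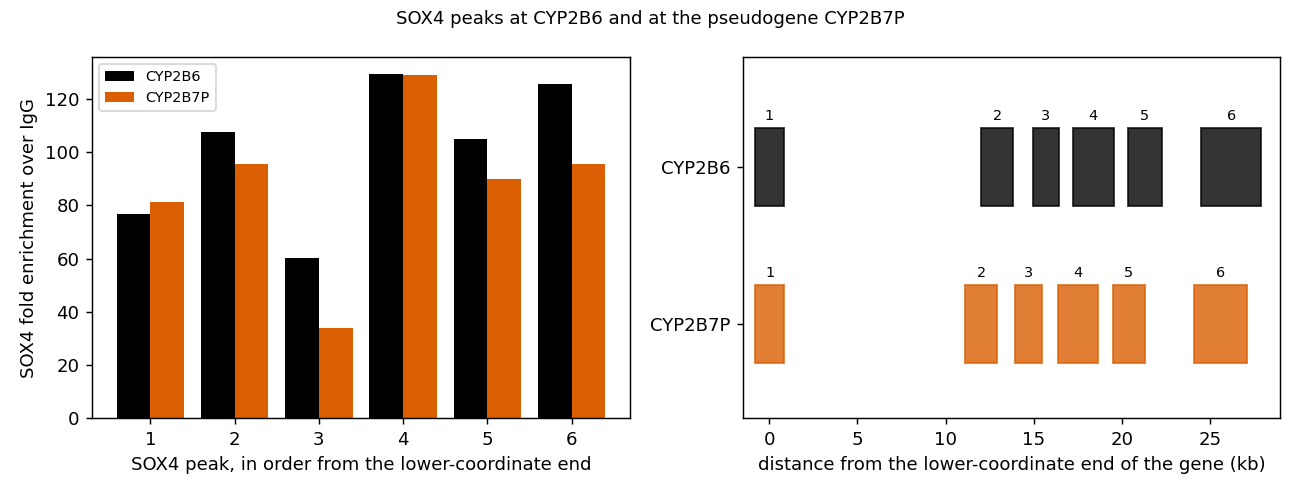
Left, SOX4 fold enrichment over IgG of the 6 peaks at CYP2B6 (black) and at CYP2B7P (orange), numbered from the lower-coordinate end; right, their extent against the distance in kb from that end of each gene. The peaks follow in the same order with similar spacing, and the third is the lowest in both genes, at 60.1 and 33.8.

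CYP2F2P, related to CYP2F1, held fewer peaks than that gene, with 3 SOX4 and 4 STAT6 peaks against 4 and 7. Its highest SOX4 fold enrichment was 165, against 164 at CYP2F1, and its highest STAT6 value was 17.1, against 24.3. SOX4 peaks covered 68.6% of CYP2F2P. CYP2A7P1, a truncated CYP2A copy, was covered to 100% by 1 SOX4 peak with a fold enrichment of 99.7 and held 3 STAT6 peaks, the highest at 13.1.

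Next to the cluster the peaks ended. None of the 5 nearest protein-coding genes on the lower-coordinate side (ACTMAP, SNRPA, MIA, RAB4B and EGLN2) or on the upper-coordinate side (AXL, HNRNPUL1, CCDC97, TGFB1 and B9D2) held a peak of either list. EGLN2, an oxygen-sensing prolyl hydroxylase, was 9.38 kb from the nearest SOX4 peak and AXL, a receptor tyrosine kinase, 11.0 kb. Beyond CYP2F2P the next SOX4 peak was 1520 kb away. On the side of CYP2S1 it lay 255 kb away and had a value of 5.16, below the list median.

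To compare the cluster with its paralogs, other cytochrome P450 genes were examined in groups set by family or by function. Of the other 10 CYP2 genes, 9 held peaks of both lists, and CYP2U1, which oxidizes long-chain fatty acids, held none. In those 9 the highest SOX4 peak per gene was between 95.7 and 183, and the highest STAT6 peak between 8.85 and 49.9, ranges that contained those of the 6 members (120.0 to 164 and 9.84 to 24.3). SOX4 peaks covered 69.1% of the members' sequence and 25.6% of that of the 10 other CYP2 genes, but the latter include far longer genes, such as CYP2C19 with 92867 bp and 17.4%. Among the shorter of them, CYP2D6 and CYP2W1 were covered to 100% and CYP2E1 to 73.3%, but CYP2R1, with 15004 bp, only to 45.5%. The SOX4 peak over CYP2D6 reached 5225 bp and 26008 bp beyond its ends, far more than at any member. Whether gene length accounts for the difference in coverage was not tested. All 3 genes of family 1 and all 4 of family 3, which also oxidize drugs and toxicants, held both kinds of peak. CYP1A2 was covered to 100% by 1 SOX4 peak, as the CYP2A genes were, whereas CYP1A1 and CYP1B1 held 2 each, which covered 85.9% and 80.6%.

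Family 4, whose enzymes oxidize fatty acids, was divided. All 6 CYP4F genes held a SOX4 peak and 5 also a STAT6 peak, whereas the 6 other genes of the family held none. The highest SOX4 peak per CYP4F gene had a median of 75.5, and that of the 6 cluster members was 139. The ranges overlapped, with 20.7 to 129.7 for the CYP4F genes and 120.0 to 164 for the members. The lowest was at CYP4F22, whose only SOX4 peak covered 2.77% of the gene. Of 21 P450 genes mainly of steroid, bile acid, vitamin or sterol metabolism, 0 held a peak of either list. These 21 lie outside families 1 to 4, so that CYP2 genes of any role were counted above. Among those was CYP2R1, with 3 SOX4 and 5 STAT6 peaks, and the split between groups depends on this grouping. Of 12 regulators and partners of the CYP2 enzymes, among them the xenobiotic receptor genes NR1I2 and NR1I3 and the electron donor POR, 0 held a peak as well. These counts are read beside the 6.35% and 1.08% of protein-coding genes given above. With shares that low, 0 in groups of 21 or 12 genes is close to what protein-coding genes as a whole show. The zeros therefore do not set these groups apart from other genes.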

How the data were processed

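CUT&RUN was done by the authors on Hep3B cells, on fixed chromatin, and peaks were called in Partek Flow. The submitters' processing notes also list BWA and hg38. Versions, the peak calling method, its threshold and the handling of reads with several matches are not given in the sources used here. The deposited peak lists give, per peak, the fold enrichment over IgG (a ratio), −log10 p and −log10 q values, a whole-number score made from the −log10 q, and the start, end and summit in bp. The score was not used, and no IgG peak list was used here. Read depth is unknown, and intervals cover counting error only.

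Gene ends came from a RefSeq table of GRCh38.p14, in which all 68 genes of the lists were found by symbol, and promoter windows from a RefSeq sequence table of the same assembly. The table gives no exons, so positions in exons or introns were not analysed here. Positions are 1-based. Overlap meant at least 1 bp. Promoter windows were aligned globally (match 1, mismatch −1, gap opening −2, gap extension −0.5). Planted peaks in simulated data were used to check the overlap counts. Computations used Python 3.11.15, numpy 2.4.6, scipy 1.17.1, pandas 2.3.3 and Biopython 1.88.

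Named were all 6 members with their peaks, the genes between them, the 5 nearest protein-coding genes on each side and, in groups, other P450 genes and their regulators. CYP2T1P and CYP2F2P were added after the peaks were seen. The members and lists were chosen with earlier results of these data known. Alternatives covered the peak threshold, the margin, summits in place of peaks and the definition of overlap.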

Additional observations from a re-analysis of the deposited data

How the results depend on the processing

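For 10 results, 40 alternatives were run. In 37 of them a count moved by less than 1.5 times or a share by less than its error. For the share of sequence covered, that error counted each base as independent. Bases under 1 peak are not independent, so this error is too narrow to be read as a real uncertainty. Stricter thresholds for the gene ends were added after the data were seen. Under each threshold, margin and summit setting run, all 6 genes held peaks of both lists and 18 SOX4 peaks were counted. The thresholds, 5 for fold enrichment or −log10 q, could not have removed a SOX4 peak. The lowest values at the members were 60.1 and 624. For STAT6 the lowest −log10 q was 5.14, so that threshold could remove no STAT6 peak either. The 29 STAT6 peaks became 28 with a fold enrichment of at least 5, and the members' sequence under STAT6 peaks went from 38.9% to 38.1%. The share of STAT6 peaks that met a SOX4 peak, 100% at 1 bp, fell to 20.7% if each peak of a pair had to cover 50% of the other, and to 41.4% with summits within 200 bp. No paired analysis was possible because the SOX4 and STAT6 libraries had no replicates. Since depth is unknown, a gene without a listed peak is not shown to lack binding.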

Other observations

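One site of the cluster with peaks of both lists lay at no annotated gene. It was between the pseudogenes CYP2G1P and CYP2B7P, 7.06 kb beyond the first and 12.9 kb before the second. The SOX4 peak there (chr19:40907568-40911354) was 3787 bp wide with a fold enrichment of 109.7, rank 213, within the range of the members. The STAT6 peak inside it (chr19:40908061-40910906) was 2846 bp wide with a fold enrichment of 6.36, rank 609. All other peaks between CYP2F2P and CYP2S1, 29 of 30 for SOX4 and 42 of 43 for STAT6, were within 1000 bp of a member or a CYP2 pseudogene.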
